A study of Homo sapiens with 12 samples.

Results

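The genes described here encode the ISG15 conjugation system: ISG15 itself, the activating enzyme UBA7, the conjugating enzyme UBE2L6, the ligase HERC5 and its relative HERC6, and the protease USP18. These 6 genes were chosen by name, with earlier results of the TYRO3 comparisons in these data known. Their differences between TYRO3 constructs are therefore given as a description, without a p-value for any single member. Counts of members called, or with an unadjusted p under 0.05, are no independent evidence. The files gave counts for 35579 genes. Low counts removed all but 15098 of these from the tests, and the 6 members were kept.

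ISG15 is a small protein made of a pair of ubiquitin-like domains, and it is joined to other proteins in a chain of reactions like that of ubiquitin. UBA7 activates ISG15, UBE2L6 receives it, and HERC5 transfers it to lysines of target proteins in human cells, whereas in mice HERC6 has this role. USP18 removes ISG15 from its targets, and it also binds an interferon receptor subunit and dampens signaling. All of these genes are textbook targets of type I interferon, whose signal reaches DNA at a sequence named the interferon-stimulated response element.

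The libraries came from WM-266-4, a human melanoma cell line, carrying a stable lentiviral knock-down of TYRO3, a receptor tyrosine kinase, and grown in puromycin. All cells were transfected with jetPRIME and serum-starved overnight before RNA was taken. The control cells received pEZY-myc-his GFP per the labels, and the others received the same vector with wild-type TYRO3 (WT), TYRO3 ΔGS or TYRO3 ΔADAM. ΔGS carries I449A at the gamma-secretase site, and ΔADAM carries P408A, L409P and G419P at the sites of ADAM proteases, so that both variants are described as releasing less of the receptor's intracellular domain. Each of the 4 groups was made once in each of 3 experiments, which gives 12 libraries. They represent 1 cell line, and every difference is one between pools of transfected cells.

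Total estimated counts were 4008293 in the control of experiment 1 and 18365999 to 38184838 in the other libraries. Values are CPM, counts scaled to the size of the library after TMM normalization, unless TPM, the length-corrected unit of kallisto, is named. TYRO3 was at 52.3 ± 4.67 CPM in control (SD, n = 3), 2075 ± 882 in WT, 2260 ± 1247 in ΔGS and 1893 ± 1204 in ΔADAM. The 7 melanocyte lineage genes summed to 1314 to 2781 CPM in every library. Genes of T cells, B cells and keratinocytes summed to at most 0.442 CPM for each cell type, with CD2, MS4A1, KRT5 and KRT1 at 0 in all 12 libraries, and those of myeloid and endothelial cells to at most 2.46 CPM.

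The members lie at separate loci, apart from the neighbours HERC6 and HERC5. In GRCh38, ISG15 (ENSG00000187608) spans chr1:1001138-1014540 on the plus strand, UBA7 (ENSG00000182179) chr3:49805207-49813946 on the minus strand and UBE2L6 (ENSG00000156587) chr11:57551656-57568284 on the minus strand. HERC6 (ENSG00000138642) spans chr4:88378739-88443111 and HERC5 (ENSG00000138646) chr4:88457117-88506163, both on the plus strand. USP18 (ENSG00000184979) spans chr22:18149899-18177397 on the plus strand.

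The promoters of ISG15 and HERC5 are shown because they hold the core of the interferon-stimulated response element, GAAANNGAA on either strand, and because both genes encode the modifier and its ligase. The sequences are those of RefSeq on GRCh38.p14, written on the plus strand, with capitals over the matches. The ISG15 stretch is chr1:1013367-1013426, from 130 to 71 bases before the RefSeq start, and the HERC5 stretch is chr4:88456979-88457068, from 140 to 51 bases before it.
ISG15: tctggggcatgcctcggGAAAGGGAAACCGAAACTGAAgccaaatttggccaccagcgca
HERC5: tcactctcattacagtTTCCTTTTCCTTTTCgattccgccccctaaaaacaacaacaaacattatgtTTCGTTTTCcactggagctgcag
In ISG15, 3 overlapping matches on the plus strand begin 113, 107 and 101 bases before the start. In HERC5, the capitals are the reverse complement of the motif: 2 overlapping matches cover 124 to 110 bases before the start, and 1 more covers 73 to 65.

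RefSeq promoter windows, from 250 bases before to 50 bases after a start, were matched for ISG15, UBE2L6, HERC5 and HERC6. The core was in 2 of these 4 genes and in 8.11% of all 35116 windows. Neither UBE2L6, with 2 windows, nor HERC6 had a match to these letters. The gamma-activated site, TTCNNNGAA on either strand, was in none of the 4 genes and in 7.66% of all windows. Among 24 other interferon-stimulated genes with a window, 19 held the core.

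The conjugation genes stood at very different levels in control cells. On the TPM scale, which corrects for transcript length, ISG15 was at 127 ± 61.1 TPM in control (SD, n = 3) and HERC5 at 26.5 ± 6.95. HERC6 followed at 18.6 ± 3.01 TPM and UBE2L6 at 9.58 ± 8.32. USP18 was at 1.95 ± 1.64 TPM and UBA7, the first enzyme of the chain, at 1.07 ± 0.711. ISG15 was the highest member in each control library, and the ranges of HERC5 and HERC6 did not overlap, whereas those of HERC6 and UBE2L6, of UBE2L6 and USP18, and of USP18 and UBA7 did.

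Summed over the 12 libraries, most counts of each member fell on coding transcripts. ISG15-204 held 95.4% of the ISG15 counts summed over the 12 libraries, UBE2L6-201 held 98.0% of UBE2L6, and HERC6-201 held 88.6% of HERC6. HERC5 was divided between HERC5-201 with 78.0% and HERC5-203 with 20.6%. UBA7-201 held 70.6% of UBA7, and retained-intron transcripts took part of the rest. In single libraries the share of UBA7-201 ran from 0.0 to 88.7%, and that of UBA7-210, a processed transcript, reached 66.7%. USP18 has 1 transcript in the files, and 30.8% of its stretches of 31 bases also occur in other genes, 28.8% in USP41, so counts of USP18 and USP41 may be divided unevenly between them. USP41 itself was at 7.36 to 10.4 CPM in control libraries and at 5.16 to 9.99 in TYRO3 libraries.

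**Figure D1:**
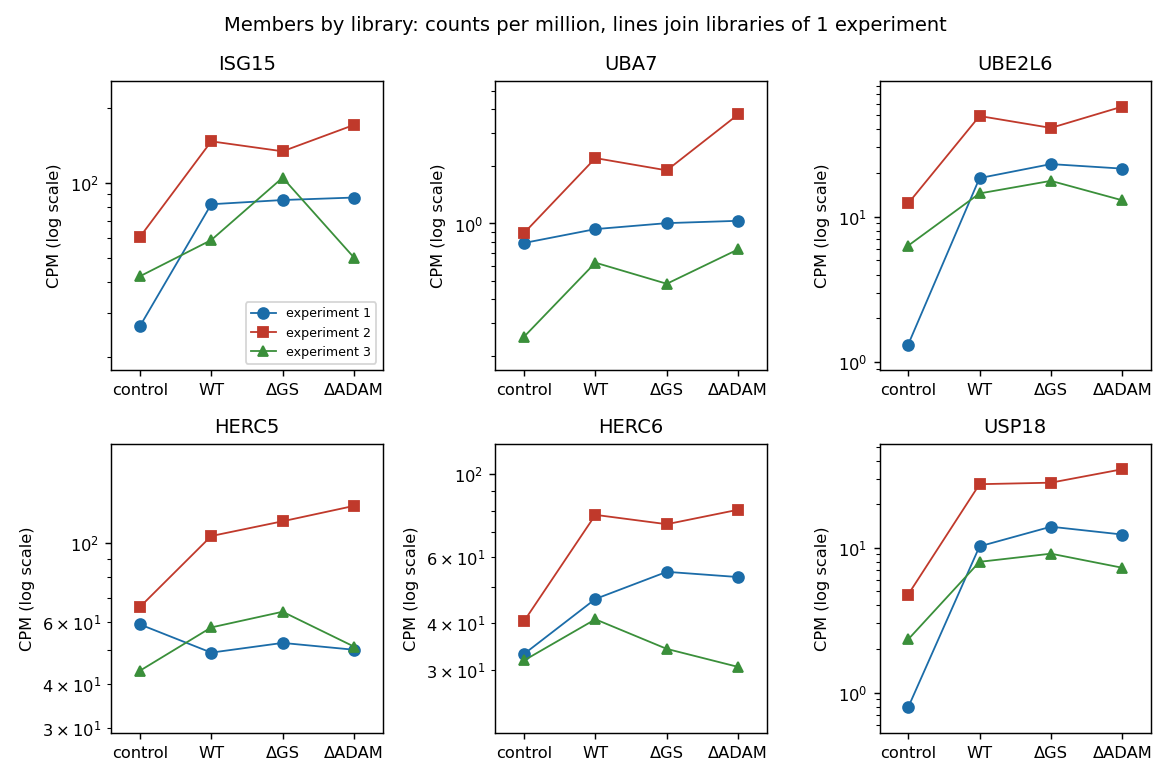
CPM of each member (vertical axis, log scale) in the control, WT, ΔGS and ΔADAM libraries (horizontal axis), with 1 point per library and lines joining the 4 libraries of an experiment. The red squares of experiment 2 are the highest of the 3 points in every group of every panel, and the control of experiment 1 is the lowest point for ISG15, UBE2L6 and USP18.

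ISG15, the modifier, was higher than in the control of the same experiment in all 9 TYRO3 libraries. In experiments 1, 2 and 3, ISG15 stood at 26.6, 60.6 and 42.2 CPM in control. With WT TYRO3 it stood at 82.1, 147 and 58.9 CPM. The values with ΔGS were 85.3, 134 and 105 CPM, and those with ΔADAM were 87.3, 171 and 50.1 CPM. The ΔGS libraries lay wholly above the control libraries, while WT and ΔADAM overlapped control through experiment 3. The ratio to the own control ran from 1.19 to 3.29, with the lowest ratios in experiment 3 for ΔADAM and WT. In such pools, a change in all cells and a change in a fraction of the cells cannot be told apart.

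UBA7, the activating enzyme, was the least abundant member and the least precisely measured. Control libraries held 3, 33 and 5 counts of UBA7, and TYRO3 libraries 11 to 85. In CPM, the control libraries stood at 0.789, 0.890 and 0.253 and the ΔADAM libraries at 1.03, 3.75 and 0.730 in experiments 1 to 3. WT gave 0.934, 2.21 and 0.621 CPM, and ΔGS 1.00, 1.90 and 0.481. All groups overlapped, although all 9 ratios to the own control were above 1, from 1.18 to 4.22. The 95% counting interval reached below 1 for 5 of the 9 UBA7 ratios, all 3 in experiment 1 (1.18 in WT, from 0.342 to 6.30) and those of WT and ΔGS in experiment 3. Intervals of this kind, the exact binomial intervals of 2 counts, cover counting error only.

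UBE2L6, the conjugating enzyme, was separated from control in each TYRO3 group. Its control libraries stood at 1.31, 12.4 and 6.32 CPM. WT libraries stood at 18.5, 49.4 and 14.5 CPM, ΔGS libraries at 23.05, 40.9 and 17.7, and ΔADAM libraries at 21.5, 57.4 and 12.97. The lowest TYRO3 library, ΔADAM of experiment 3, was just above the highest control library, that of experiment 2. Against their own controls the ratios were 14.04 to 17.5 in experiment 1, 3.31 to 4.64 in experiment 2 and 2.05 to 2.80 in experiment 3. The ratios of experiment 1 rest on 5 control counts, and that of WT, 14.04, had a 95% counting interval from 5.96 to 43.5.

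The ligase HERC5 had the lowest median ratio to control of the members, 1.33 over the 9 TYRO3 libraries, although HERC6 was lower in experiment 3. Control libraries were at 58.9, 65.96 and 43.5 CPM. WT libraries were at 49.0, 105 and 57.7 CPM, ΔGS at 52.2, 115 and 64.0, and ΔADAM at 49.9, 128 and 51.0. In experiment 1 all 3 TYRO3 libraries were below their control, at ratios of 0.832 to 0.886. In experiments 2 and 3 all 6 were above it, at 1.17 to 1.93. The control of experiment 1 held 224 counts of HERC5, and the interval of the WT ratio there ran from 0.718 to 0.967. Whether the ratio differed between experiments was not tested.

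HERC6, which lies beside HERC5, was above its own control in 8 of 9 libraries. It stood at 33.1, 40.5 and 31.9 CPM in control and at 46.5, 77.9 and 41.0 in WT. In ΔGS it stood at 54.9, 73.6 and 34.2 CPM, and in ΔADAM at 53.2, 80.4 and 30.6. The exception was ΔADAM in experiment 3, at a ratio of 0.961. WT libraries lay wholly above control by a small margin, and the other constructs overlapped it.

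USP18, the protease that removes ISG15, had the highest median ratio of the members, 5.93 over the 9 TYRO3 libraries. Control libraries stood at 0.789, 4.75 and 2.33 CPM, WT at 10.2, 27.5 and 7.99, ΔGS at 13.97, 28.1 and 9.10, and ΔADAM at 12.3, 34.8 and 7.27. No TYRO3 library reached down to a control library. The ratios were 5.79 to 7.34 in experiment 2 and 3.13 to 3.91 in experiment 3, where the controls held 176 and 46 counts. In experiment 1 the control held 3 counts, and the WT ratio of 12.9 had an interval from 4.36 to 63.4. USP41, which shares sequence with USP18, was below its own control in all 9 TYRO3 libraries, at ratios of 0.701 to 0.959. The ratios of USP41 in experiment 1 rest on 28 control counts, and their counting intervals include 1.

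Over the 6 members, 50 of the 54 ratios to the own control were above 1. ISG15, UBA7, UBE2L6 and USP18 were above it in all 9 libraries, a pattern shown by 12.7% of all genes tested. Libraries did not overlap with control for 3 members in WT (UBE2L6, HERC6 and USP18), against 20.8% of all genes. The same held for 3 in ΔGS (ISG15, UBE2L6 and USP18), against 21.0%, and for 2 in ΔADAM (UBE2L6 and USP18), against 25.7%. These shares are printed for reference only, since the members were chosen on these contrasts.

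**Figure D2:**
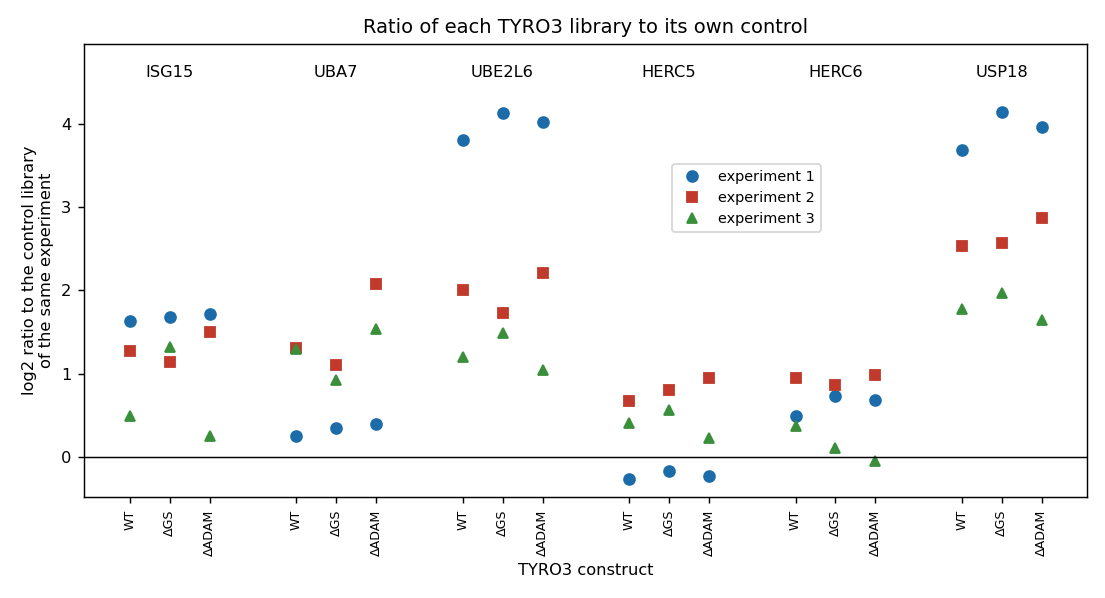
Log2 ratio of each TYRO3 library to the control library of its experiment (vertical axis), for each member and construct (horizontal axis), with experiments by color and symbol and 0 marking equal levels. UBE2L6 and USP18 in experiment 1 lie highest, at ratios of 14.04 to 17.5 and 12.9 to 17.7, and HERC5 lies below 0 in experiment 1 only.

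A model across all genes was fitted with edgeR's quasi-likelihood method, and it held the 4 groups and the batch split of the study's methods, experiment 1 versus the other two. Calls needed a fold change over 1.5 together with a Benjamini-Hochberg adjusted p of at most 0.05. In WT against control the log2 fold change was 2.37 (SE 0.71) for USP18, 1.92 (0.65) for UBE2L6 and 1.16 (0.42) for ISG15. It was 1.06 (0.82) for UBA7, 0.64 (0.37) for HERC6 and 0.30 (0.38) for HERC5. None of the 6 was called, against 0.0397% of all genes. Of the 6, 3 had an unadjusted p under 0.05, against 2300 of all 15098 genes tested. DESeq2 called 1 member, USP18, against 376 of all genes.

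ΔGS and ΔADAM gave the same picture in that model. In ΔGS the log2 fold change was 2.58 (SE 0.71) for USP18, 1.96 (0.65) for UBE2L6, 1.32 (0.42) for ISG15, 0.95 (0.81) for UBA7, 0.63 (0.37) for HERC6 and 0.42 (0.37) for HERC5. In ΔADAM it was 2.62 (0.70) for USP18, 2.09 (0.65) for UBE2L6, 1.57 (0.79) for UBA7, 1.26 (0.42) for ISG15, 0.64 (0.37) for HERC6 and 0.40 (0.37) for HERC5. edgeR called no member in either, against 0.457% and 1.11% of all genes. In each comparison 3 members had an unadjusted p under 0.05, against 2895 of all 15098 genes in ΔGS and 3087 in ΔADAM. DESeq2 called UBE2L6 and USP18 in both, against 609 and 670 of all genes. The members' median log2 fold change was 1.11 in WT, 1.14 in ΔGS and 1.42 in ΔADAM, and the median of all genes was -0.00323, 0.0100 and -0.00154. The 3 comparisons share their control libraries.

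Libraries of an experiment tended to move together, although the control of experiment 1 did so only weakly. A term for each of the 3 experiments narrowed the errors. With this replicate block, the SE of USP18 was 0.25 in each construct, and its log2 fold changes were 2.32 in WT, 2.54 in ΔGS and 2.50 in ΔADAM. UBE2L6 was at 1.79, 1.90 and 1.90 (SE 0.29), and ISG15 at 1.06, 1.33 and 1.12 (SE 0.25). These 3 members were called in all 3 comparisons, and UBA7, at 1.61 (SE 0.33), was called in ΔADAM as well. UBA7 was at 1.18 in WT and 1.03 in ΔGS (SE 0.34 in both). HERC6 was at 0.54 to 0.59 (SE 0.17) and HERC5 at 0.30 to 0.43 (SE 0.18), and neither was called. So 3, 3 and 4 of the 6 members were called with the block, against 2.35%, 4.69% and 5.19% of all genes, and nothing is read from these counts because the contrasts served to choose the members.

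Some of the calls with the block depended on single libraries. ISG15 was called in WT in 5 of the 12 fits that each left out 1 library, and UBE2L6 in 10. USP18 was called in all 12 in each comparison, and UBE2L6 in all 12 in ΔGS and ΔADAM. ISG15 was called in 11 in ΔGS and in 8 in ΔADAM, and UBA7 in 8 in ΔADAM. Over all 15278 to 15437 genes tested, the calls of these 12 fits ran from 79 to 606 in WT. They ran from 269 to 777 in ΔGS and from 198 to 870 in ΔADAM. Without the control library of experiment 2, or without its WT library, 1 member (USP18) was called in WT. These fits called 348 and 79 of all genes in WT, against 355 with all libraries. Without the control or the ΔADAM library of experiment 2, 2 members (UBE2L6 and USP18) were called in ΔADAM. There, 856 and 751 of all genes were called, against 784 with all libraries. Without the shallow control of experiment 1, ISG15 was no longer called in any comparison, whereas UBE2L6 and USP18 were called in all 3 and HERC5 was then called in ΔGS and ΔADAM. Calls over all genes also fell in that fit, from 355, 708 and 784 to 148, 269 and 288 in WT, ΔGS and ΔADAM. HERC6 was called in all 3 comparisons when the control of experiment 3 was left out. Since these contrasts were known when the members were chosen, calls that remained under such changes are not read as support.

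**Figure D3:**
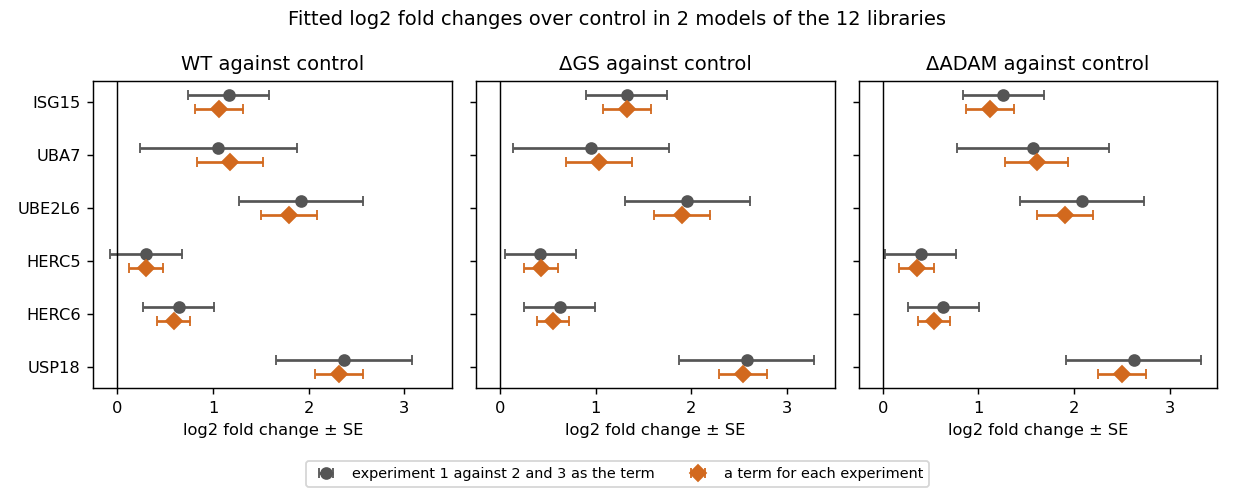
Fitted log2 fold change over control ± SE (horizontal axis) of each member (vertical axis) for WT, ΔGS and ΔADAM. Gray circles come from the model that splits off experiment 1 and orange diamonds from the model with a term for each experiment; the positions are alike, while the bars of the orange diamonds are shorter, 0.25 against 0.71 for USP18 in WT.

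The cleavage-site variants were then set against WT, a contrast of less and more released intracellular domain. Log2 differences of WT from the mean of ΔGS and ΔADAM ran from -0.23 for USP18 (SE 0.53, 95% interval -1.39 to 0.93) to 0.01 for HERC6 (SE 0.31, interval -0.68 to 0.70). For ISG15 the difference was -0.13 (SE 0.35, interval -0.91 to 0.65). Between ΔGS and ΔADAM they ran from -0.62 for UBA7 (SE 0.69, interval -2.15 to 0.90) to 0.06 for ISG15 (SE 0.40, interval -0.83 to 0.95). With the block, the differences of WT ran from -0.20 for USP18 (SE 0.17) to 0.04 for HERC6 (SE 0.14). Those between ΔGS and ΔADAM then ran from -0.58 for UBA7 (SE 0.27) to 0.20 for ISG15 (SE 0.24). No member was called by edgeR in either model, none had an unadjusted p under 0.05 without the block, and DESeq2 called none. Of all genes, 0.0% were called in these 2 contrasts.

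The experiments themselves, which did not enter the choice of members, were compared next. Experiment 2 was the highest of the 3 experiments in all 4 groups for all 6 members, a pattern shown by 8.48% of all genes tested. After this had been noticed, experiment 2 was compared with experiment 3 in the model with a term for each experiment, over all 4 groups. All 6 members passed the call rule, against 5.05% of all genes, but the comparison was prompted by the same values and gives no independent evidence, so its size is given without a p-value. The log2 difference was 2.01 for UBA7 (SE 0.26), 1.75 for USP18 (SE 0.18) and 1.56 for UBE2L6 (SE 0.23). It was 0.97 for ISG15 (SE 0.21), 0.94 for HERC6 (SE 0.14) and 0.92 for HERC5 (SE 0.15). Without ΔADAM of experiment 2, ISG15 did not pass, and 465 of all 15428 genes tested did.

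Experiment 1 was also set against experiments 2 and 3 together. The members' log2 differences were -0.78 for UBE2L6 (SE 0.48), -0.74 for USP18 (0.51), -0.57 for HERC5 (0.29), -0.55 for UBA7 (0.60), -0.49 for ISG15 (0.32) and -0.13 for HERC6 (0.28). edgeR called none of them, none had an unadjusted p under 0.05 and DESeq2 called none, against 2.97% of all genes called. TYRO3 itself stood as follows. With WT, TYRO3 was at 3064 CPM in experiment 1, 1791 in experiment 2 and 1369 in experiment 3, with ΔGS at 3694, 1436 and 1648, and with ΔADAM at 3284, 1215 and 1181. The part of the TYRO3 level in the differences between experiments was not tested.

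Of 9 further ligases and proteases that act on ISG15, 1 was called. It was TRIM25, an ISG15 ligase that also activates the RNA sensor DDX58, in ΔADAM by either model (log2 fold change 0.61, SE 0.12). Of all genes, 1.11% were called in ΔADAM without the block and 5.19% with it. TRIM25 was at 199 to 305 CPM in control and at 345 to 442 in the 9 TYRO3 libraries, with no overlap. Of all genes, 20.8% in WT, 21.0% in ΔGS and 25.7% in ΔADAM also did not overlap with control. The log2 fold change of TRIM25 was 0.58 in WT and 0.55 in ΔGS. The ligase ARIH1 was at 0.06, -0.01 and 0.11 in WT, ΔGS and ΔADAM. The proteases USP14 and USP5, which also act on ubiquitin, were at -0.11 to -0.16 and -0.33 to -0.43. The list's median log2 fold change was -0.11 in WT, -0.15 in ΔGS and -0.18 in ΔADAM.

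The members' relatives outside the ISG15 chain gave no call. Of 8 such genes 7 were tested, and edgeR called none in any of the 3 comparisons in either model. Without the block, 0, 0 and 2 of the 7 had an unadjusted p under 0.05 in WT, ΔGS and ΔADAM, against 2300, 2895 and 3087 of all 15098 genes. With the block, 1, 0 and 2 of the 7 did. UBA1, the activating enzyme of ubiquitin, was at log2 fold changes of -0.13, -0.15 and -0.18 in WT, ΔGS and ΔADAM. UBE2L3, the ubiquitin counterpart of UBE2L6, was at -0.19, -0.13 and -0.22.

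Among genes that carry the interferon signal, the transcription factors STAT2 and IRF9 were called higher in each construct with the block. Of all genes, 2.35%, 4.69% and 5.19% were called in WT, ΔGS and ΔADAM with the block, in either direction. STAT2 stood at 30.2, 44.5 and 35.9 CPM in control and at 48.4, 77.5 and 46.7 in WT in experiments 1 to 3. With the block its log2 fold change was 0.61 in WT, 0.67 in ΔGS and 0.71 in ΔADAM (SE 0.12 in each), and that of IRF9 was 0.73, 0.81 and 0.75 (SE 0.16). The transcription factor IRF1 (1.40 to 1.71, SE 0.13) and the feedback inhibitor SOCS1 (1.60 to 1.88, SE 0.39) were called in each construct as well. IRF9 and SOCS1 are named after their values were seen. Without the block IRF1 was called in ΔGS (1.70, SE 0.26) and ΔADAM (1.67, SE 0.26), against 0.457% and 1.11% of all genes. STAT2, IRF9 and SOCS1 were not called without the block. The kinases JAK1 and TYK2, which bind the receptor, stayed between -0.14 and 0.03 on the log2 scale without the block, and neither was called in either model.

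The interferon genes themselves were at the edge of detection. The 12 listed genes summed to 0.209 to 1.55 CPM in the libraries, and IFNK, IFNA1, IFNA2 and IFNG were at 0 in all 12. Only IFNB1 passed the filter, at 0, 0.162 and 0.202 CPM in control, 0.165, 0.884 and 0.222 in WT, 0.262, 0.794 and 0.306 in ΔGS, and 0.118, 0.574 and 0.0696 in ΔADAM. Its log2 fold change was 1.56 (SE 0.86) in WT, 1.74 (SE 0.84) in ΔGS and 0.83 (SE 0.89) in ΔADAM. It was not called in either model, and it had an unadjusted p under 0.05 in WT and ΔGS with the block and in no comparison without it. Between experiments 2 and 3, the log2 difference of IFNB1 was 1.55 (SE 0.45, edgeR with the block).

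A list of 30 other interferon-stimulated genes, chosen with earlier results of these data known, holds none of the members. All 30 passed the filter and had fitted log2 fold changes above 0 in the 3 comparisons. Without the block edgeR called none of them, against 0.0397%, 0.457% and 1.11% of all genes in WT, ΔGS and ΔADAM. An unadjusted p under 0.05 was found for 24, 24 and 25 of them, against 2300, 2895 and 3087 of all 15098 genes. With the block 26, 27 and 26 were called higher and none lower, against 2.35%, 4.69% and 5.19% of all genes called in either direction. The list's median log2 fold change without the block was 1.56, 1.58 and 1.68. MX1, an antiviral GTPase, stood at 15.3, 130 and 58.9 CPM in control and at 192, 493 and 174 in WT. IFIT1, which binds foreign RNA, was at 31.8, 69.4 and 37.8 CPM in control and at 85.7, 305 and 106 in WT. LGALS3BP, the most abundant gene of the list, was not called in any construct with the block (0.31 to 0.39). Of the 30 genes, 28 passed the call rule as higher in experiment 2 than in experiment 3, against 5.05% of all genes in either direction.

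**Figure D4:**
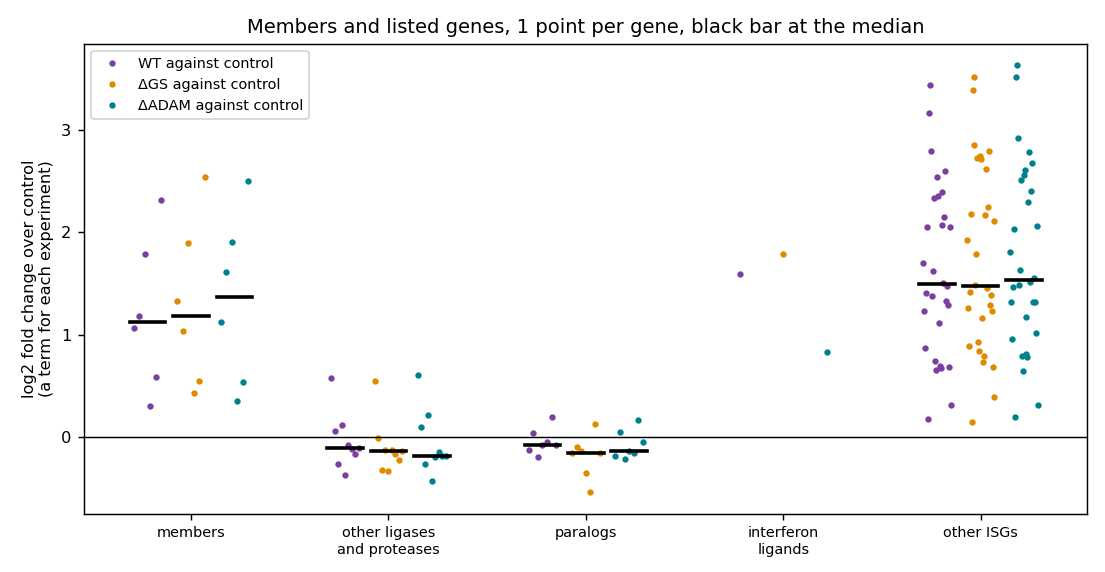
Log2 fold change over control with a term for each experiment (vertical axis) for the members and 4 gene lists (horizontal axis), with 1 point per tested gene, colors for the 3 constructs and black bars at the medians. The members spread from 0.30 to 2.54, and most other ligases, proteases and paralogs lie near 0.

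All 7 melanocyte lineage genes had log2 fold changes below 0 in the 3 comparisons. Their sum was 2292 to 2781 CPM in control, 1314 to 2547 in WT, 1366 to 2291 in ΔGS and 1355 to 2063 in ΔADAM. With the block, 2 of the 7 were called lower in ΔGS and ΔADAM, namely DCT, a melanin enzyme, and MITF, the lineage transcription factor. Of all genes, 4.69% and 5.19% were called there in either direction. Without the block 1 of the 7 was called, MITF in ΔADAM, against 1.11% of all genes. DCT was at 335, 365 and 444 CPM in control and at 88.1, 241 and 203 in ΔADAM. The part of these shifts in the members' values was not tested.

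Within experiments, the members varied together to different degrees. Log2 CPM values, less the mean of their experiment, correlated with those of ISG15 at a Pearson r of 0.938 for USP18 and 0.935 for UBE2L6 over the 12 libraries. HERC6 followed at 0.829, UBA7 at 0.596 and HERC5 at 0.504. Over the 15 pairs of members r ran from 0.297 to 0.985. The 12 points share constructs and experiments, so these values are a description. They include the control libraries, so the contrasts that served to choose the members enter r. The genes most like ISG15 were IFI35 (0.988), IFITM3 (0.984), LGALS3BP (0.984), PARP10 (0.984), METTL1 (0.983), PLEKHA4 (0.981), PML (0.980) and HLA-C (0.977). Among tested genes, USP18 ranked 58 by this measure, UBE2L6 61, HERC6 746, UBA7 3131 and HERC5 3982.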

How the data were processed

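Poly(A) RNA of transfected WM-266-4 cells was sequenced in 12 libraries. Reads were trimmed by the authors (PRINSEQ, Trimmomatic 0.33), who quantified Ensembl 96 transcripts (GRCh38) with kallisto 0.46.0. The deposited values are estimated counts and TPM per transcript, without the batch correction of the study. Identifiers, less their version, were joined to GENCODE 29 (169797 of 188753, 97.4 to 97.5% of counts) and summed per gene. Estimated counts were rounded, filtered with filterByExpr (minimum count 10, minimum total 15), scaled by TMM and tested with edgeR 4.0.16 in R 4.3.3, on all 12 libraries, with the 4 groups and experiment 1 against experiments 2 and 3 as terms. P-values were adjusted over the 15098 genes. In a simulated WT against control comparison of 14900 genes, 176 of 200 genes changed by 4-fold were recovered, with 6 false calls. The simulated counts held no difference between experiments, so these numbers do not measure the power of the real comparisons.

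The labels number the experiments, so libraries of 1 experiment are paired. Deviations from group means correlated at 0.0384 to 0.529 within experiments and at -0.373 to 0.0533 between them. The control of experiment 1 had the lowest values within an experiment, 0.0384 to 0.0824. The alternative with a replicate block is printed beside each call of a member that it changed. Whether the 3 experiments used separate cultures is not given in the sources used here, so p-values measure the spread between these libraries.

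The members and gene lists were chosen with earlier results of these data known. The text names the members, TYRO3, up to 4 genes per list by mean CPM, any gene behind a count of 5 or fewer, and the 8 genes most correlated with ISG15. DESeq2 1.42.0 and limma 3.58.1 (log2 of TPM with a pseudocount of 1) were alternatives. Correlations used log2 CPM with a prior count of 2. The control of the labels encodes GFP, while the study also describes an empty plasmid, and the labels were followed. Some results of the interferon signaling list are not reported here.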

Additional observations from a re-analysis of the deposited data

How the results depend on the processing

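Without the block, edgeR called none of the 6 members in any construct. The same held with RLE or upper-quartile scaling, without a batch term, on experiments 2 and 3 alone and on only the groups compared. These further edgeR fits called at most 6, 85 and 164 of all genes in WT, ΔGS and ΔADAM. With limma none of the 6 was called either, and 1 of all genes in each construct. DESeq2 called 1 in WT, 2 in ΔGS and 2 in ΔADAM, an edgeR fit without the filter on low counts called 3, 3 and 3 (ISG15, UBE2L6 and USP18), and the replicate block gave 3, 3 and 4. Over all genes tested, 6, 69 and 168 were called without the block, 376, 609 and 670 by DESeq2, 562, 765 and 879 without the filter, and 355, 708 and 784 with the block. Leaving out each library in turn gave 0 to 0 in WT and ΔGS and 0 to 1 in ΔADAM, where USP18 was called without ΔGS replicate 3. Over all genes tested, the same fits called 1 to 20 in WT, 1 to 137 in ΔGS and 1 to 449 in ΔADAM. With the block and 1 library left out, which was chosen after seeing the data, the count was 1 to 4 in WT, 3 to 4 in ΔGS and 2 to 4 in ΔADAM, and 5 to 6 between experiments 2 and 3. Of all genes, these fits called 79 to 606 in WT, 269 to 777 in ΔGS and 198 to 870 in ΔADAM. Between experiments 2 and 3 they called 385 to 869. Experiment 1 against experiments 2 and 3 gave 0 calls, and 1 (HERC5) without the filter. Over all genes these fits called 449 of 15098 and 761 of 25269. The replicate block changed no call between WT and the variants or between ΔGS and ΔADAM. With at least 10 counts in every library, only 3 members could be tested. The cause of these shifts was not tested. UBA7 rests on 3 to 85 counts per library, and the control of experiment 1, at 4008293 counts, limits the ratios of USP18, UBA7 and UBE2L6 there.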
